A study of Mus musculus with 12 samples.

Results

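The lysosome is the acidic compartment in which macrophages break down what they take up and what autophagy delivers. Its acid hydrolases work at a low pH that the V-ATPase maintains: the cytosolic V1 sector burns ATP and turns a ring of proteolipids in the membrane-embedded V0 sector, which moves protons into the lumen. TFEB, TFE3 and MITF, basic helix-loop-helix leucine zipper factors of the MiT/TFE family, bind E-boxes of the CLEAR type in promoters of lysosomal genes, and mTORC1, the Rag GTPases and folliculin hold them in the cytosol while nutrients are plentiful. In macrophages these enzymes also trim antigens, and cathepsins and legumain process endosomal Toll-like receptors.

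The genes described here are 45 of the 55487 in the deposited tables: Tfeb, Tfe3 and Mitf, 6 lysosomal membrane proteins, 8 proteases, 9 glycosidases and lipid hydrolases, 3 soluble proteins that are not enzymes, and 16 V-ATPase genes (6 of V0, 8 of V1 and 2 accessory proteins). They were chosen by gene symbol, all 45 symbols were found, and all 45 were among the 15801 genes with enough counts to be tested. Measured values played no part in the rule, although the list was drawn up with earlier results of these data known.

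Poly-A RNA was sequenced from bone marrow-derived macrophages of mice, grown in macrophage colony-stimulating factor, in 4 groups of 3 libraries. Wild-type (Fes+/+) macrophages and macrophages lacking the tyrosine kinase Fes (Fes-/-) were each sampled with PBS or with lipopolysaccharide (LPS, the bacterial cell wall component that activates TLR4) at 1 μg/mL for 4 h. The treatment protocol calls the PBS cells untreated. The labels give no age, sex or strain, carry 1 shared batch label, and number the libraries 1 to 3 as biological replicates without saying which libraries came from the same mouse.

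Library totals ran from 61016254 to 101027166 counts. Fes stood at 154 to 174 transcripts per 1000000 (TPM) in wild-type PBS libraries and 63.8 to 66.7 in Fes-/- PBS libraries, and at 72.2 to 82 and 16 to 16.8 under LPS, so RNA was still counted over the gene in the labelled knockout. All 6 genes that check the LPS label (Tnf, Il6, Il1b, Il12b, Nos2 and Ptgs2) were higher under LPS in both genotypes, and their summed TPM moved from at most 47.8 to at least 15400. All 8 macrophage markers were among the genes tested, at a summed TPM of 17000 to 40900, against at most 45 for 8 neutrophil markers, 8.17 for 8 lymphocyte markers and 3.06 for 6 dendritic cell markers. In bulk RNA, fewer cells of a type and less RNA per cell cannot be told apart.

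The CLEAR core consists of the E-box CACGTG with a T before it and an A after it. In the RefSeq promoter table (GRCm38.p6, 250 bases before to 50 after each start site), 36 of the 45 genes had an entry. The E-box lay in the window of 13 of the 36 (36.1%), against 8.09% of all genes in the table. Its CLEAR form, TCACGTGA, lay in 7 of the 36 (19.4%), against 1.12% of all genes; every CLEAR core also counts as an E-box, and both motifs read the same on the 2 strands. The 7 genes were Ctsa, Ctsd, Mcoln1, Gla, Atp6v1a, Atp6v0d1 and Atp6v0e, and the windows of Tfeb, Mitf, Tfe3, Ctsc and Atp6v1e1 held neither motif. The sites upstream of the start are printed below because CLEAR is the type of motif that MiT/TFE factors bind in promoters of lysosomal genes. Each is given 5′ to 3′ on the gene's strand with the CLEAR core in capitals.
Ctsa (chr2:164833749-164833772, plus strand): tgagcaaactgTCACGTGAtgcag
Ctsd (chr7:142387908-142387937, minus strand): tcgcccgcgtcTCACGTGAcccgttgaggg
Mcoln1 (chr8:3500462-3500491, plus strand): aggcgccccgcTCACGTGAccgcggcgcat
Atp6v1a (chr16:44139373-44139402, minus strand): ttttttttaaaTCACGTGAtaggcttaacg
Gla, distal site (chrX:134601215-134601244, minus strand): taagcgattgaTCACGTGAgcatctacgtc
Gla, proximal site (chrX:134601182-134601211, minus strand): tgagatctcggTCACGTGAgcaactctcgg

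The E-box within the core began 12 bases before the start site in Ctsa, 45 in Mcoln1, 98 in Ctsd and 131 in Atp6v1a, and 227 and 194 bases before it in Gla. The window of Lamp1 held 4 E-boxes, none of them with the flanking T and A. A match is a description of the letters and was not tested for binding.

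At rest the 45 genes spanned a wide range of levels per length. In wild-type PBS libraries the highest was Psap, the precursor of the saposins that present sphingolipids to hydrolases, at 8930 ± 690 TPM (SD, n = 3). Ctsb, a cysteine protease, followed at 7370 ± 315 TPM, then Cd68 at 4950 ± 382, the aspartic protease Ctsd at 4810 ± 186 and Grn at 3530 ± 154. The spreads of Cd68 and Ctsd overlap, so their order is not resolved. Tfeb was the lowest of the 45 at 26.3 ± 1.36 TPM, beside Atp6v1h at 27.2 ± 3.4, and these 2 do not differ beyond their spread. Together the 45 genes summed to 47800 ± 1520 TPM in wild-type PBS libraries and 44500 ± 1850 TPM in Fes-/- PBS libraries.

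LPS moved the scale on which any of these genes can be read. The 20 most abundant genes held 9.16% to 10.7% of counts in PBS libraries and 12.3% to 12.7% in LPS libraries, and the TMM factors, which align the bulk of genes between libraries, were 1.35 to 1.4 under PBS and 0.707 to 0.737 under LPS. With these factors the median log2 fold change of all tested genes was -0.07 in wild type and -0.08 in Fes-/- macrophages, so a change by TMM is one relative to the typical gene. With library totals and no factor the same medians were -0.98 and -1.01. Changes below are by TMM unless library totals, or the size factors of DESeq2 (called RLE here), are named. Adjusted p-values are from edgeR's quasi-likelihood test with Benjamini-Hochberg adjustment over all 15801 genes, and a gene is called below 0.05.

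The largest movements among the 45 genes under LPS were a fall of Tfeb RNA to 3.20% of its PBS level, a 5-fold rise of Mitf and a 6.83-fold rise of Ctsc, by TMM in wild type. Library totals gave log2 fold changes of -5.88, 1.41 and 1.86 for these 3 genes, each in the same direction. In wild-type macrophages 19 of the 45 were called higher and 9 lower by TMM, where 34.6% of all tested genes were called higher and 38.8% lower. With library totals 3 were called higher and 39 lower, against 16.3% and 68.5% of all genes. In Fes-/- macrophages TMM called 21 higher and 9 lower (34.3% and 38.9% of all genes), and library totals called 3 higher and 39 lower (15.9% and 70.0%). The median log2 fold change of the 45 by TMM was 0.14 in wild type and 0.18 in Fes-/- macrophages.

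**Figure D1:**
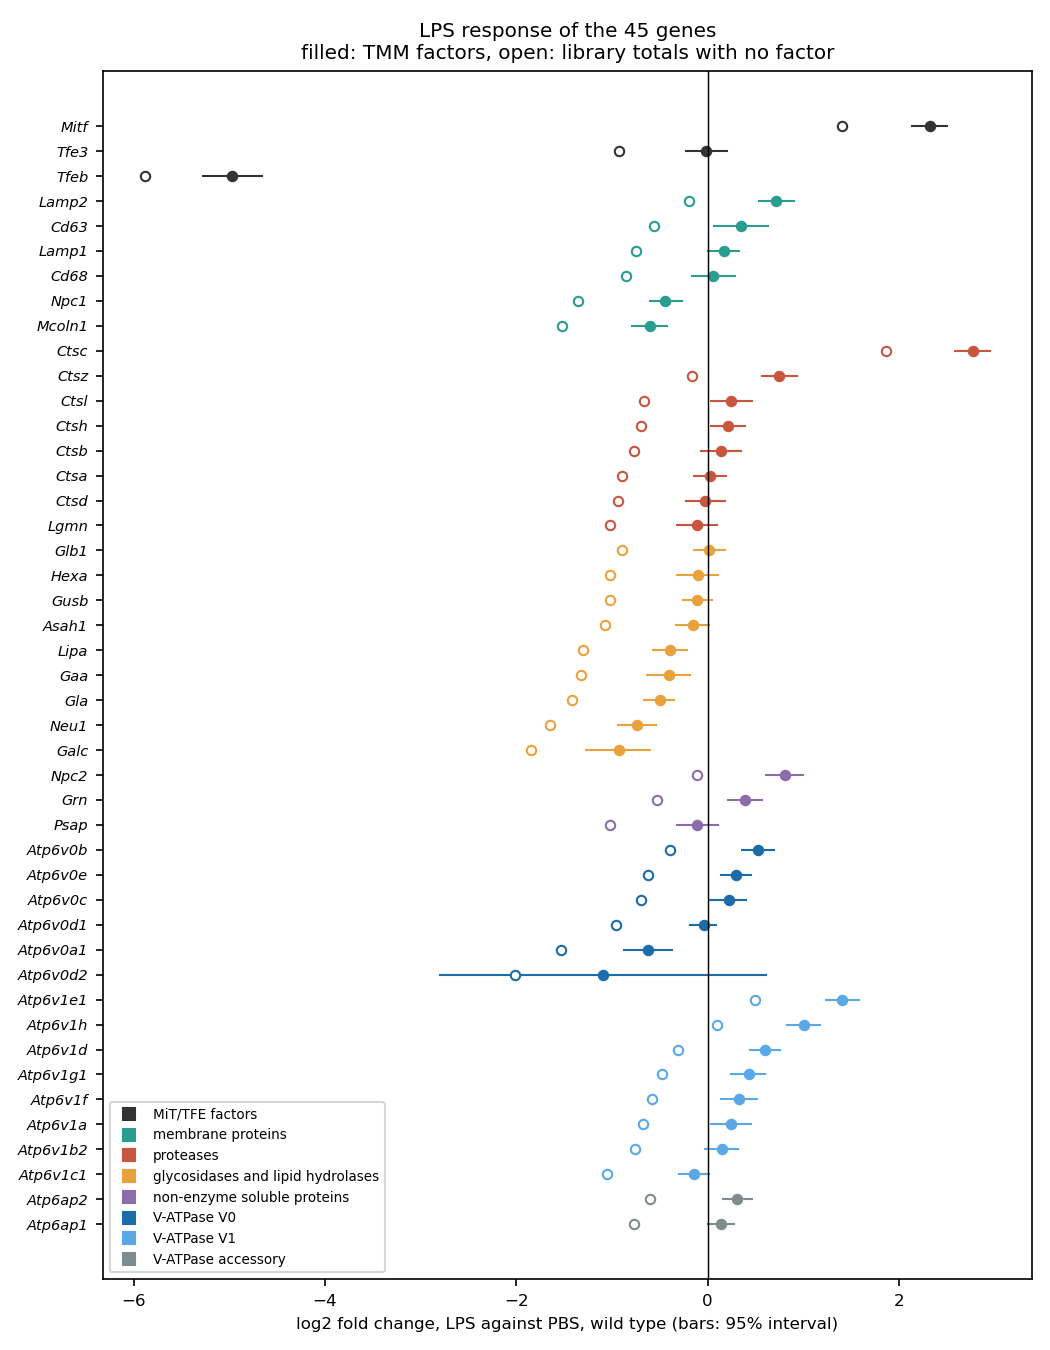
Log2 fold change under LPS in wild-type macrophages (horizontal axis) of the 45 genes (rows, coloured by role), by TMM (filled points, bars are 95% intervals) and by library totals (open points, no bars). Each open point lies to the left of its filled one. Mitf, Ctsc and Atp6v1e1 were called higher on both scales, Tfeb lies at -4.97 and -5.88, and the 13 genes called higher by TMM and lower by totals have a filled point right of 0 and an open point left of it.

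Tfeb, the best known activator of lysosomal genes, fell in both genotypes. Wild-type libraries 1 to 3 held 30.7, 33.7 and 31.8 counts per 1000000 (CPM, after TMM) with PBS and 1.22, 0.748 and 1.10 with LPS. Fes-/- libraries held 27.7, 28.2 and 33.0 with PBS and 1.05, 1.01 and 1.16 with LPS. Every LPS library was far below every PBS library, and the LPS values rest on 35 to 77 counts against 2392 to 3169. The log2 fold change was -4.97 (SE 0.15, adjusted p = 3.96e-13) in wild type and -4.79 (SE 0.14, adjusted p = 4.35e-13) in Fes-/- macrophages, which leaves 3.20% and 3.61% of the PBS level. With library totals it was -5.88 and -5.72.

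Mitf, the family member best known from melanocytes and osteoclasts, moved the other way. Its CPM in wild-type libraries was 61.4, 52.6 and 49.3 with PBS and 256, 282 and 278 with LPS. In Fes-/- libraries it was 51.4, 52.0 and 51.0 with PBS and 273, 259 and 275 with LPS. The treatments did not overlap, and the log2 fold change was 2.32 (SE 0.08, adjusted p = 3.77e-12) in wild type and 2.39 (SE 0.08, adjusted p = 2.90e-12) in Fes-/- macrophages, or 1.41 and 1.45 with library totals. Tfe3, the third factor, stayed with the typical gene. Its CPM was 133, 151 and 129 with PBS and 129, 153 and 127 with LPS in wild type, and 122, 121 and 139 against 123, 115 and 144 in Fes-/- macrophages. It was not called by TMM (log2 fold change -0.02, SE 0.10, in wild type), while with library totals it was lower by -0.93 and -0.94.

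**Figure D2:**
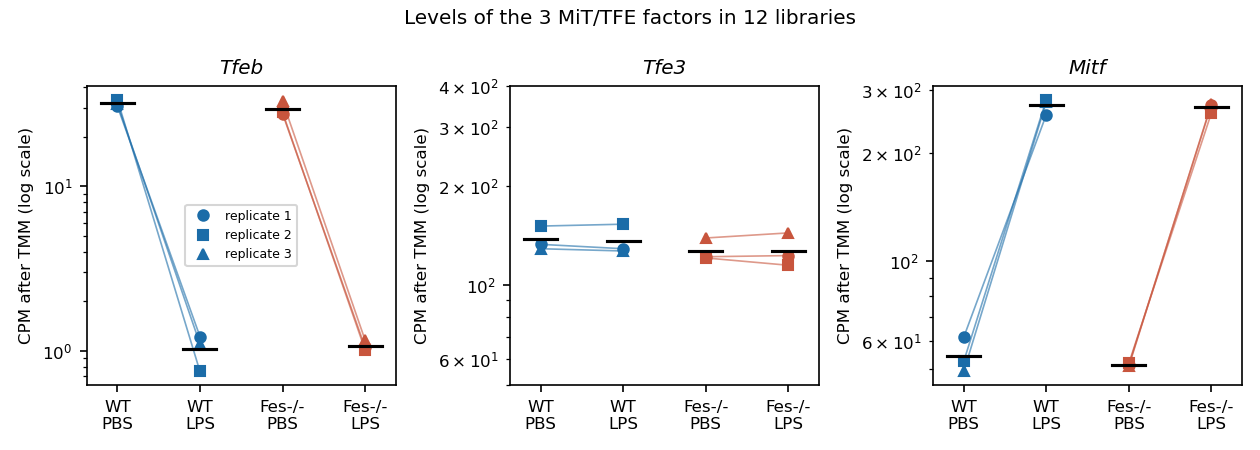
CPM after TMM (vertical axis, log scale) of Tfeb, Tfe3 and Mitf in the 12 libraries, blue for wild type and red for Fes-/-, with lines joining equal replicate numbers and black bars at the group means. Tfeb lies between 27.7 and 33.7 with PBS and between 0.748 and 1.22 with LPS, Mitf moves from between 49.3 and 61.4 to between 256 and 282, and Tfe3 overlaps between treatments on this scale.

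Shares within a library do not depend on a scaling factor, though a share also falls when other genes of the sum rise. Of the summed TPM of Tfeb, Tfe3, Mitf and Tfec, the fourth gene of the family, Tfeb held 16.2% ± 0.616 (SD, n = 3) with PBS and 0.213% ± 0.062 with LPS in wild type. The share of Mitf went from 25.1% ± 2.87 to 51.2% ± 2.26, that of Tfec from 16.5% ± 1.42 to 31.5% ± 1.7, and that of Tfe3 from 42.3% ± 1.86 to 17.1% ± 0.753. In Fes-/- macrophages the share of Tfeb went from 15.6% ± 0.659 to 0.23% ± 0.00247 and that of Mitf from 24.9% ± 1.54 to 52.8% ± 2.23. The PBS and LPS libraries did not overlap for any of these 6 shares.

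Among the 6 lysosomal membrane proteins, 2 were called higher and 2 lower by TMM in wild type, and all 6 lower with library totals. Of all genes in wild type 34.6% were higher and 38.8% lower by TMM, and 16.3% and 68.5% by totals. Lamp2, a glycoprotein of the limiting membrane with a part in autophagy, had 503, 567 and 547 CPM with PBS and 800, 953 and 912 with LPS in wild type. Fes-/- macrophages had 543, 538 and 521 with PBS and 948, 890 and 861 with LPS. The log2 fold change was 0.72 (SE 0.09, adjusted p = 2.15e-06) and 0.75 (SE 0.09, adjusted p = 1.35e-06) by TMM and turned to -0.19 and -0.18 with library totals. Mcoln1, the lysosomal calcium channel TRPML1, had 57.6, 67.2 and 56.6 CPM with PBS and 41.5, 39.0 and 38.8 with LPS in wild type, and 53.5, 52.7 and 59.7 against 37.9, 32.6 and 36.8 in Fes-/- macrophages. Every LPS library was below every PBS library, with a log2 fold change of -0.60 (SE 0.09, adjusted p = 1.53e-05) in wild type and -0.63 (SE 0.09, adjusted p = 1.05e-05) in Fes-/- macrophages, or -1.52 and -1.56 with library totals. Npc1, which exports cholesterol from the lysosome, was also lower on both scales in both genotypes, by -0.44 and -0.39 with TMM and by -1.35 and -1.32 with totals. By TMM Lamp1 stood at 0.17 in wild type, which was not called, and at 0.22 in Fes-/- macrophages, and the tetraspanin Cd63 at 0.35 and at 0.28, the latter not called. By totals both were lower in both genotypes (Lamp1 at -0.75 and -0.72, Cd63 at -0.56 and -0.65). With replicate number as a block Cd63 was called in Fes-/- macrophages too, at 0.28 (SE 0.07, adjusted p = 0.00347). Cd68, the macrosialin by which macrophages are stained, was not called by TMM in either genotype.

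The 8 proteases held the largest rise of all 45 genes. By TMM 4 were called higher and none lower in wild type, beside 34.6% and 38.8% of all genes. With library totals 1 was higher and 6 lower, beside 16.3% and 68.5% of all genes. Ctsc, or cathepsin C, is the dipeptidyl peptidase that activates serine proteases of leukocyte granules. Its CPM was 453, 437 and 442 with PBS and 2880, 3190 and 3030 with LPS in wild type. The Fes-/- values were 397, 434 and 390 with PBS and 2520, 2590 and 2470 with LPS. The log2 fold change was 2.77 (SE 0.09, adjusted p = 6.43e-13) in wild type and 2.63 (SE 0.08, adjusted p = 1.00e-12) in Fes-/- macrophages, or 1.86 and 1.70 with library totals.

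The other 3 called proteases were the carboxypeptidase Ctsz at 0.75 in both genotypes, the cysteine protease Ctsl at 0.25 and 0.30, and the aminopeptidase Ctsh at 0.21 and 0.32 (wild type, then Fes-/-, by TMM). All 3 turned negative with library totals, from -0.16 for Ctsz to -0.70 for Ctsh in wild type. Ctsa, Ctsb, Ctsd and the asparaginyl endopeptidase Lgmn lay between -0.11 and 0.18 by TMM in both genotypes and were not called. The exons of Ctsl overlap an antisense gene over 26.8% of their length and those of Ctsd a same-strand gene over 34.4%, and no source used here says whether counting used strand. The overlapping genes themselves were assigned at most 0.0204 CPM. Exons of Pltp, on the opposite strand at 163 to 666 CPM, cover 10.5% of those of Ctsa, and how many of the counts given to Ctsa this touches was not measured.

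The glycosidases and lipid hydrolases were the role with no gene called higher on either scale. By TMM 5 of 9 were called lower in both genotypes, with a median log2 fold change of -0.39 in wild type and -0.28 in Fes-/- macrophages, where 38.8% and 38.9% of all genes were lower and the medians of all genes were -0.07 and -0.08. By totals all 9 were lower, beside 68.5% and 70.0% of all genes, with medians of -1.30 and -1.22 against -0.98 and -1.01. The largest fall was that of Galc, the enzyme that removes galactose from galactocerebroside. Its CPM was 117, 148 and 109 with PBS and 58.9, 76.3 and 60.5 with LPS in wild type, and 101, 84.6 and 122 against 58.2, 53.1 and 68.3 in Fes-/- macrophages. No LPS library reached the lowest PBS library of its genotype, and the log2 fold change was -0.93 (SE 0.16, adjusted p = 0.000109) in wild type and -0.78 (SE 0.16, adjusted p = 0.000512) in Fes-/- macrophages, or -1.85 and -1.71 by totals. The sialidase Neu1 fell by 0.74 and 0.62, the alpha-galactosidase Gla by 0.50 and 0.53, the acid alpha-glucosidase Gaa by 0.40 and 0.28 and the acid lipase Lipa by 0.39 and 0.34 on the log2 scale of TMM, in wild type and then Fes-/- macrophages. By totals the same values were -1.65 and -1.55 for Neu1, -1.42 and -1.46 for Gla, -1.32 and -1.22 for Gaa, and -1.30 and -1.28 for Lipa. With RLE factors the fall of Gaa in Fes-/- macrophages was not called. Hexa, Glb1, Gusb and Asah1, which act on gangliosides, galactosides, glucuronides and ceramide, lay between -0.15 and 0.11 and were not called by TMM.

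Of the soluble proteins without enzyme activity, Npc2 and Grn were called higher by TMM and Psap was not called, and with library totals all 3 were negative. Npc2 hands cholesterol to Npc1. It had 838, 799 and 893 CPM with PBS and 1420, 1570 and 1440 with LPS in wild type, and 824, 684 and 759 against 1420, 1310 and 1290 in Fes-/- macrophages. The log2 fold change was 0.81 (SE 0.09, adjusted p = 1.19e-06) and 0.83 (SE 0.09, adjusted p = 9.52e-07) by TMM, and -0.11 in both genotypes with totals, which was not called. Npc1 and Npc2, the partners in cholesterol export, stood on opposite sides of the typical gene. Grn, progranulin, stood at 0.39 and 0.46 by TMM and -0.53 and -0.48 by totals.

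Of the 16 V-ATPase genes, 10 were called higher and 1 lower by TMM in wild type, and 12 higher and 1 lower in Fes-/- macrophages, whereas totals called 1 higher and 14 lower in both. Over all genes the shares higher and lower were 34.6% and 38.8% in wild type by TMM and 34.3% and 38.9% in Fes-/- macrophages, and 16.3% and 68.5%, then 15.9% and 70.0%, by totals. The cytosolic V1 sector carried most of the calls by TMM, with 6 of 8 higher in wild type and 7 of 8 in Fes-/- macrophages; by totals 1 of 8 was higher and 6 lower. Atp6v1e1, a subunit of the peripheral stalks, had 90.7, 78.9 and 81.5 CPM with PBS and 223, 233 and 212 with LPS in wild type. Fes-/- macrophages had 80.0, 77.3 and 89.7 with PBS and 212, 213 and 216 with LPS. It was higher on both scales, with a log2 fold change of 1.41 (SE 0.08, adjusted p = 3.87e-10) and 1.37 (SE 0.08, adjusted p = 5.27e-10) by TMM and 0.50 and 0.44 by totals. Atp6v1h, which couples V1 to V0, followed at 1.01 and 0.96 by TMM but at 0.10 and 0.03 by totals, which was not called. Atp6v1d and Atp6v1f of the rotor, Atp6v1g1 of the stalk and the catalytic subunit Atp6v1a were called higher by TMM in both genotypes, from 0.24 to 0.76, and all 4 were negative by totals. Atp6v1c1 was not called by TMM in either genotype (-0.14 in both).

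In the membrane sector V0, 3 of 6 genes were called higher by TMM and 1 lower in both genotypes, and all 6 were lower by totals. Atp6v0b, a proteolipid of the rotating ring, had 160, 160 and 171 CPM with PBS and 233, 242 and 233 with LPS in wild type, and 156, 148 and 176 against 218, 204 and 225 in Fes-/- macrophages. Its log2 fold change was 0.53 (SE 0.08, adjusted p = 1.88e-05) and 0.43 (SE 0.08, adjusted p = 0.00014) by TMM and turned to -0.39 and -0.50 by totals. Atp6v0e stood at 0.30 and 0.29 and the main proteolipid Atp6v0c at 0.22 and 0.21 by TMM, both negative by totals. Of the accessory proteins, Atp6ap2, also known as the prorenin receptor, had 186, 166 and 181 CPM with PBS and 223, 221 and 217 with LPS in wild type. In Fes-/- macrophages its CPM was 183, 167 and 187 with PBS and 229, 236 and 218 with LPS. Its log2 fold change was 0.31 (SE 0.07, adjusted p = 0.00118) and 0.35 (SE 0.07, adjusted p = 0.000477) by TMM and -0.60 and -0.59 by totals, while Atp6ap1 stood at 0.14 and 0.18 by TMM, called in Fes-/- macrophages and not in wild type, and was lower in both by totals, at -0.77 and -0.75.

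The a subunit of V0 anchors the proton channel and steers the pump to different membranes. Atp6v0a1 had 306, 293 and 250 CPM with PBS and 199, 153 and 200 with LPS in wild type, and 241, 276 and 267 against 211, 235 and 188 in Fes-/- macrophages. All LPS libraries were below all PBS libraries within a genotype. The log2 fold change was -0.62 (SE 0.12, adjusted p = 0.000207) in wild type and -0.31 (SE 0.12, adjusted p = 0.0278) in Fes-/- macrophages, or -1.53 and -1.24 by totals. The Fes-/- call was lost with RLE factors (adjusted p = 0.0584), with DESeq2 (adjusted p = 0.0608) and without any of Fes-/- PBS libraries 2 and 3 or Fes-/- LPS libraries 1 and 3 (adjusted p up to 0.12). The genotypes were not shown to differ in this effect (difference 0.32, 95% interval -0.04 to 0.67, adjusted p = 1). Of the summed TPM of Atp6v0a1, Atp6v0a2 and Tcirg1, which encodes the a3 subunit known from osteoclasts and phagosomes, Atp6v0a1 held 32.7% ± 2.88 with PBS and 11% ± 2.2 with LPS in wild type, and Tcirg1 63.2% ± 2.84 and 84.6% ± 2.42. In Fes-/- macrophages Atp6v0a1 went from 31.5% ± 3 to 13.8% ± 2.06 and Tcirg1 from 64.2% ± 3.14 to 81.5% ± 2.23. Tcirg1 and Atp6v0a2 are not among the 45 genes, and Tcirg1 was picked here after its values were seen.

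Atp6v0d2, the d subunit isoform known from osteoclasts and myeloid cells, was the one gene whose libraries differed widely within a group. Its CPM in wild-type libraries 1 to 3 was 34.5, 47.5 and 12.7 with PBS and 18.4, 20.2 and 5.78 with LPS. In Fes-/- libraries it was 7.95, 5.72 and 24.8 with PBS and 3.85, 3.04 and 10.6 with LPS. The groups overlap, yet within a genotype the library with the same number was high or low under both treatments: the LPS level was 53.3%, 42.6% and 45.5% of the PBS level in wild type and 48.5%, 53.1% and 42.8% in Fes-/- macrophages. Without the block it was not called, at a log2 fold change of -1.09 (SE 0.76, adjusted p = 0.218) and -1.16 (SE 0.79, adjusted p = 0.213). With replicate number within genotype as a block it was -1.09 (SE 0.09, adjusted p = 7.50e-08) and -1.07 (SE 0.10, adjusted p = 1.85e-07). The block was inferred from these same data, and this gene was picked after its values were seen. These block p-values are therefore not independent support for a fall. By totals without the block it was called lower, at -2.01 (adjusted p = 0.0339) and -2.08 (adjusted p = 0.0331). On that scale 68.5% and 70.0% of all genes were called lower, with medians of -0.98 and -1.01. The summed TPM of 7 osteoclast markers, none of them at 0 in every library, ran from 60.7 to 76.7 in PBS libraries and from 18.3 to 20.8 in LPS libraries, and their part in the Atp6v0d2 values was not tested. Of the 7, 5 had enough counts to be tested, and by TMM 1 was called higher and 2 lower under LPS in wild type and 2 higher and 3 lower in Fes-/- macrophages. Its widely expressed relative Atp6v0d1 had 122, 127 and 137 CPM with PBS and 125, 126 and 124 with LPS in wild type, and was not called by TMM in either genotype.

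**Figure D3:**
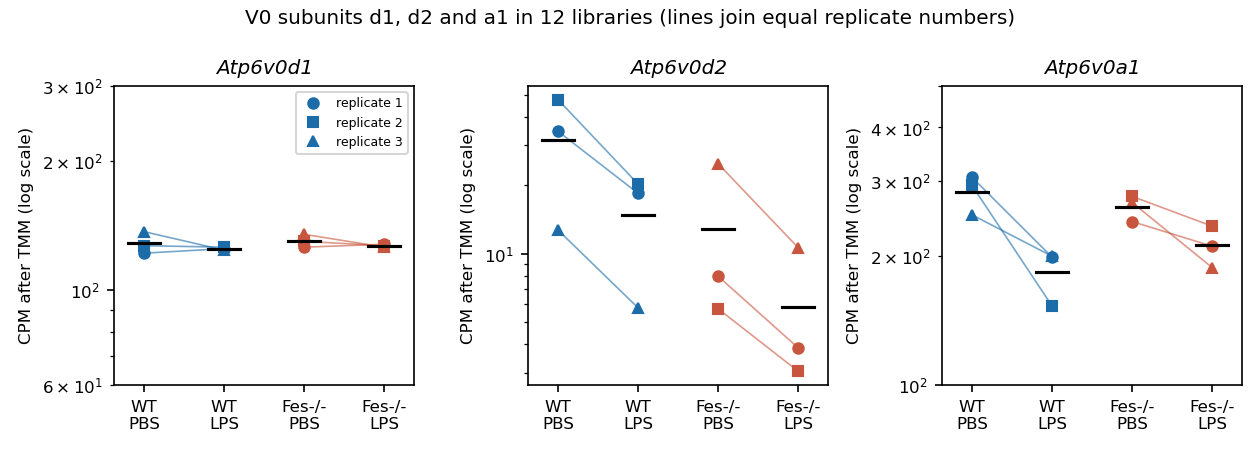
CPM after TMM (vertical axis, log scale) of the V0 subunits Atp6v0d1, Atp6v0d2 and Atp6v0a1 in the 12 libraries, blue for wild type and red for Fes-/-, with lines joining equal replicate numbers and black bars at the group means. The 6 lines of Atp6v0d2 fall by similar factors from starting points between 5.72 and 47.5, those of Atp6v0d1 are nearly flat by TMM, and those of Atp6v0a1 fall.

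The wild-type and Fes-/- comparisons of LPS with PBS share no library, but both come from 1 fit with a joint filter and 1 shared estimate of the spread. Over all genes TMM called 34.6% higher and 38.8% lower in wild type and 34.3% and 38.9% in Fes-/- macrophages. The LPS effect differed between genotypes for 3 of 15801 genes (0.0190%). How many of all genes agreed between genotypes, or on all 3 scales, was not counted, so agreement is not particular to the 45. By TMM 18 of the 45 were called higher in both genotypes and 9 lower in both, and none was called in opposite directions. A further 14 were called in neither, and Atp6ap1, Atp6v1b2, Lamp1 and Cd63 were called in 1 genotype. With RLE factors these 4 were called higher in both genotypes, with totals lower in both, and for none of them was the effect shown to differ between genotypes. On all 3 scales (TMM, RLE and totals), Mitf, Ctsc and Atp6v1e1 were called higher in both genotypes. Called lower on all 3 scales were Tfeb, Npc1, Mcoln1, Galc, Neu1, Gla and Lipa in both genotypes, and Gaa and Atp6v0a1 in wild type. By TMM in wild type the ends of all 45 were Tfeb at -4.97 and Ctsc at 2.77, and fewer genes span less by number alone. The 7 genes with a CLEAR core in the window lay between -0.60 and 0.30. Their wild-type log2 fold changes by TMM were -0.60 for Mcoln1, -0.50 for Gla, -0.04 for Atp6v0d1, -0.03 for Ctsd, 0.03 for Ctsa, 0.24 for Atp6v1a and 0.30 for Atp6v0e, and all 7 were negative by totals.

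Between genotypes no gene of the 45 was called, under PBS or LPS. Under PBS 13 of 15801 genes were called (0.0823%) and under LPS 17 (0.108%). The interval of the genotype difference lay within 2-fold in either direction for 44 of the 45 genes under both treatments, the exception being Atp6v0d2 with its spread (-1.30, 95% interval -3.00 to 0.40 under PBS). Under PBS the values leaned one way by a small amount: 41 of the 45 log2 differences were negative by TMM, 33 by totals and 30 by TPM, with a median of -0.11 by TMM against 0.00 over all genes and of -0.06 against 0.04 on the log2(TPM + 1) scale. Unadjusted p was below 0.05 for 6 genes, all lower in Fes-/- macrophages (1.95% of all genes), and 9 genes had every Fes-/- library below every wild-type library (3.80% of all genes) and none the reverse (3.03%). All 9 were among the 26 genes that are neither V-ATPase genes nor MiT/TFE factors. By TMM those 26 were all negative under PBS, with a median of -0.15. The 16 V-ATPase genes hardly leaned, with 12 negative values and a median of -0.03. Under LPS 35 of the 45 were negative and their median was -0.09, which became -0.04 without wild-type LPS library 2 and -0.05 without Fes-/- LPS library 2. In that comparison 2 genes were lower and 1 higher at that unadjusted p (3.11% and 3.40% of all genes), and 7 did not overlap on the lower side and 1 on the higher (5.63% and 5.78%). Some marker lists leaned the same way: all 8 macrophage markers were negative under PBS with a median of -0.17, and all 6 neutrophil markers tested were negative with a median of -0.66, at a summed TPM of 32.9 to 45 in wild-type and 23.2 to 30.3 in Fes-/- PBS libraries. Other lists were mixed, with 4 of 6 dendritic cell, 3 of 5 osteoclast and 1 of 2 mast cell, erythroid and stromal markers negative. The 1 lymphocyte marker tested was negative. None of these markers was called, and their part in the lean was not tested.

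**Figure D4:**
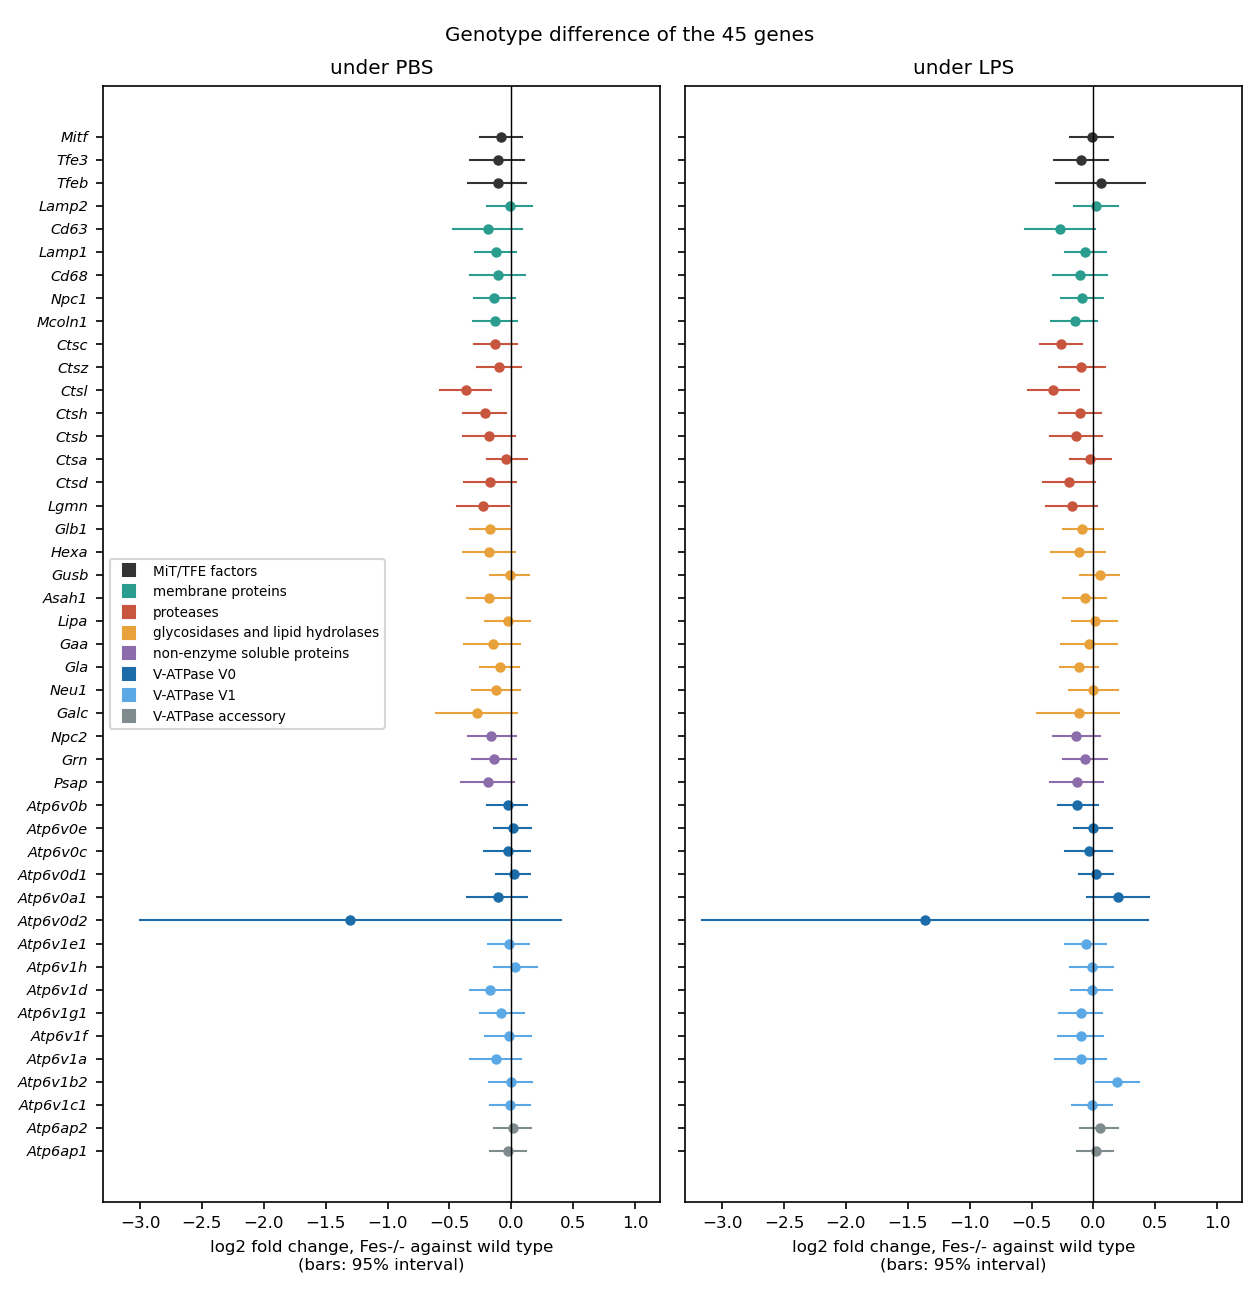
Log2 fold change of Fes-/- against wild type by TMM (horizontal axis) for the 45 genes (rows, coloured by role) under PBS (left) and LPS (right), with 95% intervals as bars. Most points lie slightly left of 0 (41 of 45 under PBS and 35 under LPS by TMM), Ctsl at -0.37 and -0.33 is the point farthest left after Atp6v0d2, and no gene passed the adjusted threshold.

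The smallest p among the 45 belonged to Ctsl, a cysteine protease that processes antigens and the invariant chain. Wild-type libraries held 1140, 938 and 978 CPM and Fes-/- libraries 803, 724 and 842 with PBS, without overlap. With LPS they held 1320, 1200 and 1120 against 993, 960 and 954, again without overlap. The log2 difference was -0.37 (SE 0.10, adjusted p = 0.674) under PBS and -0.33 (SE 0.10, adjusted p = 0.615) under LPS. Under PBS it passed with DESeq2 (adjusted p = 0.0441) and with no filter on low counts (adjusted p = 0.0324), and in none of the other fits run. Both of those fits also called more of all genes under PBS. DESeq2 called 15 higher and 18 lower and the fit with no filter 164 and 151, against 8 and 5 in the main fit.

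Ctsh had 121, 140 and 128 CPM in wild type and 111, 104 and 120 in Fes-/- macrophages with PBS (log2 difference -0.21, SE 0.08, adjusted p = 0.975). Lgmn had 1080, 1280 and 1180 against 1010, 899 and 1110 (-0.23, SE 0.10, adjusted p = 0.975). Fes-/- libraries were lower for both, without overlap for Ctsh and with overlap for Lgmn, and neither was called. Ctsc and Ctsd lie on chromosome 7, as does Fes, which starts at 80377756 in GRCm38, with Ctsc starting at 88278085 and Ctsd at 142375911. The Ctsc values printed above did not overlap between genotypes under either treatment, with a log2 difference of -0.13 (SE 0.08, adjusted p = 0.975) under PBS and -0.26 (SE 0.08, adjusted p = 0.615) under LPS. Ctsd had 2550, 2380 and 2380 CPM in wild type and 2160, 1930 and 2390 in Fes-/- macrophages with PBS, and 2550, 2430 and 2200 against 2210, 2020 and 2020 with LPS. Its differences of -0.17 and -0.20 (adjusted p = 0.975 and 0.782) came from groups that overlap under PBS and, by 1 library, under LPS. Atp6v1b2, the subunit that forms the catalytic hexamer with Atp6v1a, had 372, 372 and 390 CPM in wild type and 427, 469 and 399 in Fes-/- macrophages with LPS (0.19, SE 0.08, adjusted p = 0.748).

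The LPS effects of the 2 genotypes were compared directly. Over all genes 3 differed (0.0190%), and none of the 45 did, with no unadjusted p below 0.05 and 44 of 45 intervals within 2-fold. After Atp6v0a1, the smallest p belonged to Atp6v1b2, whose effect was 0.15 in wild type and 0.34 in Fes-/- macrophages by TMM (difference 0.19, 95% interval -0.06 to 0.44, adjusted p = 1). Atp6v1d, with 69.6, 77.8 and 70.4 CPM rising to 112, 112 and 106 in wild type and 60.4, 61.8 and 71.3 rising to 108, 109 and 110 in Fes-/- macrophages by TMM (and falling by totals), differed by 0.16 (95% interval -0.07 to 0.39). For Tfeb the difference was 0.18 (95% interval -0.25 to 0.61) and for Mitf 0.07 (95% interval -0.18 to 0.31).

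Other genes of the same pathways were read from lists of their own. A list of 21 genes held those that control where TFEB resides (mTORC1, Rag, Ragulator, calcineurin and folliculin), together with Tfec and Zkscan3. By TMM in wild type 8 were called higher and 11 lower, where all genes gave 34.6% and 38.8%. By totals 1 was higher and 20 lower, where all genes gave 16.3% and 68.5%. Flcn, which activates the Rag GTPases, had 66.0, 88.1 and 74.8 CPM with PBS and 5.61, 7.46 and 5.35 with LPS, a log2 fold change of -3.64 by TMM and -4.55 by totals (adjusted p = 8.26e-12 by TMM). Mlst8, a subunit of mTORC1, changed by -2.15 and -3.06. Chosen after their values were seen, the folliculin partners Fnip2 and Fnip1 changed by -2.38 and -1.28 by TMM, and the Rag GTPase Rragd by -2.83. All 3 were lower by totals as well. Tfec, also named after its values were seen, was higher on both scales, at 2.23 and 1.31. Fes-/- macrophages gave -3.71 for Flcn, -2.93 for Rragd and 2.01 for Tfec by TMM.

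**Figure D5:**
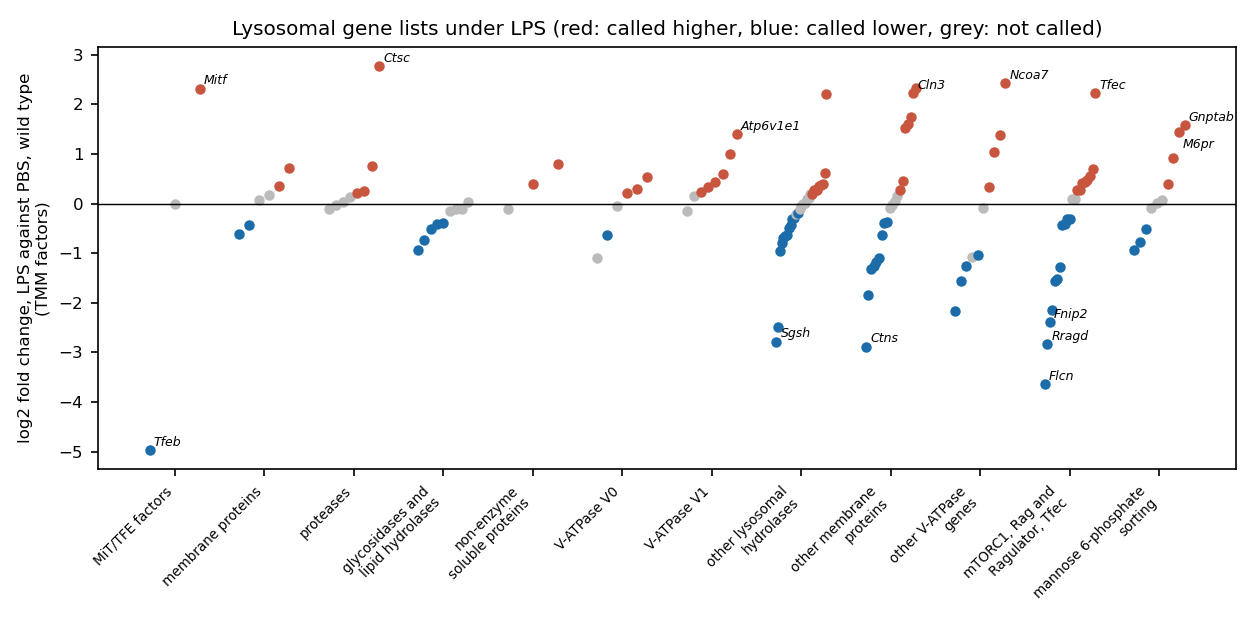
Log2 fold change under LPS in wild-type macrophages by TMM (vertical axis) for every tested gene of 7 of the role lists and of 5 further lists (horizontal axis), coloured by its call. Points right of centre in a list are its higher genes. The glycosidases and lipid hydrolases have no red point, and Tfeb at -4.97 and Flcn at -3.64 lie lowest. By library totals most red points are no longer called higher, and of the named red points Mitf, Tfec, Ctsc, Cln3, Ncoa7, M6pr, Gnptab and Atp6v1e1 stay called higher.

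Among 29 lysosomal enzymes and activators outside the 45, 9 were higher and 12 lower by TMM in wild type, and 1 higher and 28 lower by totals. The shares of all genes to set beside these lists are again 34.6% higher and 38.8% lower by TMM and 16.3% and 68.5% by totals. Sgsh, which desulfates heparan sulfate, changed by -2.78 and -3.69, and the acid sphingomyelinase Smpd1 by -0.96 and -1.88. Of 20 further membrane proteins 7 were higher and 9 lower by TMM and 5 higher and 15 lower by totals. Cln3, lost in juvenile Batten disease, was higher at 2.23 and 1.32, and Ctns, the cystine exporter, lower at -2.88 and -3.79. Of 16 other V-ATPase genes 10 were tested, with 4 higher and 4 lower by TMM and 2 and 7 by totals. Ncoa7, of the TLDc family that binds the V-ATPase, stood at 2.43 and 1.52 and Atp6v0a2 at 1.05 and 0.14, the latter not called by totals. In the mannose 6-phosphate route that delivers hydrolases to lysosomes, 4 of 10 genes were higher and 3 lower by TMM and 2 and 7 by totals. The receptor M6pr (1.45 and 0.54) and Gnptab, which starts the tag (1.58 and 0.67), were higher on both scales. None of these 90 tested genes was called between genotypes under PBS or under LPS.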

How the data were processed

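Raw counts per Ensembl gene and TPM (transcripts per 1000000, scaled by gene length) for the 12 libraries were deposited by the authors as 2 tables. The submitters' processing notes name STAR 2.7.8a, Picard 2.9.0, R and DESeq2 1.34.0 and the builds GRCm38 and mm9 without roles; the counting program and its use of strand are not given in the sources used here. Lengths implied by the deposited counts and TPM matched GENCODE exon lengths on GRCm38 within 1% for 9353 of 9487 genes and for 44 of 44 of the genes described that had 100 counts in every library.

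Counts were fitted with edgeR 4.0.16 (filterByExpr, TMM, robust quasi-likelihood test, 1 mean per group, 8 residual degrees of freedom, in R 4.3.3) over all 15801 genes passing the filter, and the 45 rows were read from that fit. CPM are counts per 1000000 of the TMM-scaled total. Alternatives were RLE factors, library totals, other filters, DESeq2 1.42.0, the compared groups alone, limma 3.58.1 on log2(TPM + 1) and log2(TPM + 0.1), each library left out, and a replicate block. Within a genotype, PBS and LPS libraries of equal number deviated together from their group means (r = 0.32, 0.37 and 0.32 in wild type and 0.21, 0.21 and 0.31 in Fes-/- macrophages). Unequal numbers gave r from -0.26 to -0.02 in wild type and from -0.26 to 0.12 in Fes-/- macrophages. Between genotypes some unequal numbers gave r as high, up to 0.36 under PBS and 0.40 under LPS. An r of this size is therefore not particular to libraries of equal number. The numbers were taken to pair PBS and LPS libraries within a genotype, and this pairing comes from the data, not from the labels.

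Values are given for every library for the 3 factors, the called gene with the largest rise and fall in each role in wild type, the 3 smallest p between genotypes and chromosome 7 genes, and in further lists the 2 smallest p are named; Atp6v0d2 was added after its values were seen. Members and lists were chosen with earlier results of these data known. Nothing says that the libraries are separate mice, so p-values measure the spread between these libraries. Totals of 61016254 to 101027166 counts leave counting error small for all 45 genes except Tfeb under LPS. Intervals are at 95%.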

Additional observations from a re-analysis of the deposited data

How the results depend on the processing

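The LPS counts depended on the scaling. Called higher and lower were 3 and 39 genes in wild type with library totals and with both TPM fits, and 3 and 39 with totals and 3 and 40 with either TPM fit in Fes-/- macrophages, against 19 and 9 and 21 and 9 by TMM. With RLE factors the counts were 22 and 9 and 23 and 7. The calls over all 15801 genes moved as well. They were 5464 higher and 6137 lower by TMM in wild type, 5728 and 5878 with RLE factors, 2579 and 10828 with totals and 2513 and 10934 on log2(TPM + 1). In Fes-/- macrophages the same fits gave 5424 and 6150, 5696 and 5858, 2510 and 11064, and 2448 and 11198. Atp6v1d and Ctsl, called higher by TMM in both genotypes, turned negative with totals (-0.31 and -0.17 for Atp6v1d, -0.66 and -0.64 for Ctsl). Of the genes with the largest rise in their role, 4 called higher by TMM turned negative with totals, log2(TPM + 1) and log2(TPM + 0.1), in that order. Lamp2 gave -0.19, -0.22 and -0.22 in wild type and -0.18, -0.22 and -0.23 in Fes-/- macrophages. Npc2 gave -0.11, -0.13 and -0.13, then -0.11, -0.15 and -0.15. Atp6v0b gave -0.39, -0.41 and -0.41, then -0.50, -0.54 and -0.54. Atp6ap2 gave -0.60, -0.63 and -0.63, then -0.59, -0.63 and -0.63.

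With no filter on low counts 2 genes were called lower in Fes-/- macrophages under PBS (Ctsl, and Atp6v0d2 at -1.31) and 1 under LPS (Atp6v0d2 at -1.34). Over all 28358 genes that fit called 164 higher and 151 lower under PBS and 232 and 126 under LPS. DESeq2 called 1 of the 45 under PBS (Ctsl), beside 15 higher and 18 lower of all 15801 genes. The main fit called 8 and 5 of 15801 under PBS and 11 and 6 under LPS. The cause of these added calls was not tested. The replicate block gave 19 higher and 10 lower in wild type and 22 and 10 in Fes-/- macrophages, the changes being Atp6v0d2 in both and Cd63 in Fes-/- macrophages. Over all 15801 genes the block called 5601 higher and 6261 lower in wild type and 5599 and 6278 in Fes-/- macrophages. Across genotypes, equal numbers did not deviate together (r = -0.09, -0.37 and -0.25 under PBS), though some unequal numbers did (r up to 0.36 under PBS). A block on equal numbers called 0 of the 45. Leaving out each library changed the call of 1 named gene, Atp6v0a1 in Fes-/- macrophages. Depth limits Tfeb under LPS, which rests on 35 to 77 counts.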
